A study of Mus musculus with 36 samples.

Results

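This report describes microRNAs (miRNAs) in mouse kidneys at postnatal day 3 (P3) after collecting-duct deletion of Pkd2. The 6 libraries compared are 3 knockout (KO) and 3 wild-type (WT) libraries of the 36 in the series, which also holds a Pkd1 model and kidneys taken at P1 and P7. They were chosen by genotype and age alone. Of 1915 mature miRNAs in the table, 746 had at least 10 reads in at least 3 of the 18 libraries of the Pkd2 model and were tested.

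KO animals were Pkd2f/f:HoxB7-Cre mice on a C57BL/6 background, in which exons 3 and 4 of Pkd2 lie between loxP sites. WT animals were age-matched Pkd2f/f littermates without Cre, so both groups carried the floxed allele, and the deletion and the Cre transgene cannot be told apart. The HoxB7 promoter restricts Cre to the ureteric bud and the collecting duct that grows from it, whereas the RNA came from whole kidney. In such bulk samples, fewer cells of a type and less RNA per cell cannot be told apart. The sources used here do not tie the libraries to single animals, sexes or batches, so p-values measure only the spread between these libraries. Pkd2 messenger RNA is not part of a miRNA table and the genotype labels were not checked against it.

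Pkd2 encodes polycystin-2, a calcium-permeable cation channel that works with polycystin-1, the product of Pkd1, in the primary cilium of tubule cells. Loss of either protein gives tubules that dilate and form cysts. A miRNA of about the length printed below pairs with target messenger RNAs mainly through its seed, bases 2 to 8, and lowers their translation or stability. The miR-183 cluster (miR-183, miR-96 and miR-182), of which miR-182-5p is the member followed most closely in the study, is transcribed as 1 unit and was known first from sensory cells. miR-21a-5p is a widely expressed miRNA that is often raised in injured and cystic kidney.

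The sequences on which the results turn are given first, from RefSeq for mouse build GRCm38.p6 (the assembly also called mm10), 5′ to 3′ with the seed in capitals. Of the 746 miRNAs, 622 matched a single mature sequence there. The first set holds 4 products of the miR-183 cluster, whose levels at P3 are the main subject below.
miR-182-5p: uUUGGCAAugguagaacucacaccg
miR-96-5p: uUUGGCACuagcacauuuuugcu
miR-183-5p: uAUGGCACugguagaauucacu
miR-182-3p: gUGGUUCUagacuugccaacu
Their hairpins lie on the minus strand of chromosome 6, outside other annotated genes, at chr6:30165918-30165992 (Mir182), chr6:30169446-30169551 (Mir96) and chr6:30169668-30169737 (Mir183). Counted from 1 at the 5′ end, the seeds of miR-182-5p and miR-96-5p differ at A8C, and those of miR-96-5p and miR-183-5p at U2A. No other miRNA among the 622 had any of these 3 seeds.

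The second set holds the more abundant miRNAs among those with the smallest p-values at P3, followed by miR-21a-5p and miR-31-5p, which were higher in KO at P7.
miR-455-3p: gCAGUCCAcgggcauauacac
miR-9-5p: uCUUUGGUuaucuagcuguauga
miR-299a-5p: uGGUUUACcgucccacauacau
miR-21a-5p: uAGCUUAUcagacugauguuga
miR-31-5p: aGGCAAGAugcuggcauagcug
miR-455-3p lies at chr4:63256904-63256924 on the plus strand, in an intron of Col27a1. miR-9-5p comes from 3 hairpins, on chromosomes 3, 7 and 13, and its reads cannot be assigned to 1 of them. The Mir299a hairpin, at chr12:109710638-109710700 on the plus strand, belongs to the imprinted miR-379/410 cluster. The Mir21a hairpin, at chr11:86584067-86584158 (minus strand), overlaps an exon of Vmp1. Mir31 lies at chr4:88910557-88910662, also minus strand, inside an exon of a long intergenic non-coding RNA.

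The third set holds the most abundant pair, whose share of reads varied widely between the libraries.
miR-10a-5p: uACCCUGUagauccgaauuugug
miR-10b-5p: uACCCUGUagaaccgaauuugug
Both have the same seed and differ at U12A. Mir10a lies at chr11:96317165-96317274 and Mir10b at chr2:74726070-74726137, both on plus strands, the latter in introns of Hoxd3 and Hoxd4.

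The libraries held 21859844 to 32663566 miRNA reads and between 972 and 1193 detected miRNAs. A count of 3 reads, taken as the lowest level told apart from 0, was worth between 0.0755 and 0.248 normalised counts per 1000000 reads (CPM, scaled by trimmed mean of M values, TMM). WT replicate 1 stood apart from the other 5 libraries. miR-10a-5p and miR-10b-5p took 71.9% of its reads, compared with 37.0% and 38.5% in WT replicates 2 and 3 and with 48.9%, 59.6% and 41.5% in KO replicates 1 to 3. Its TMM factor was 0.544, whereas those of the others ran from 0.915 to 1.31, and it lay at one end of a first principal component that held 62.5% of the variance. WT replicates 2 and 3 were the most alike pair, with a chi-square per degree of freedom of 137.7, compared with 9485 and 9000 between either and WT replicate 1. KO replicate 2 had the second highest miR-10 share. For this reason the counts over all miRNAs, and many of the single values below, are also given without WT replicate 1. The counts are also given without both WT replicate 1 and KO replicate 2. WT replicate 1 was singled out, and both libraries chosen, after the data were seen. Leaving out WT replicate 1 by itself raises the estimate of a miRNA that was highest in that library. Scaling by library totals lowers every other miRNA in that library, where the miR-10 pair took 71.9% of reads. Values by library totals below carry this limit.

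**Figure D1:**
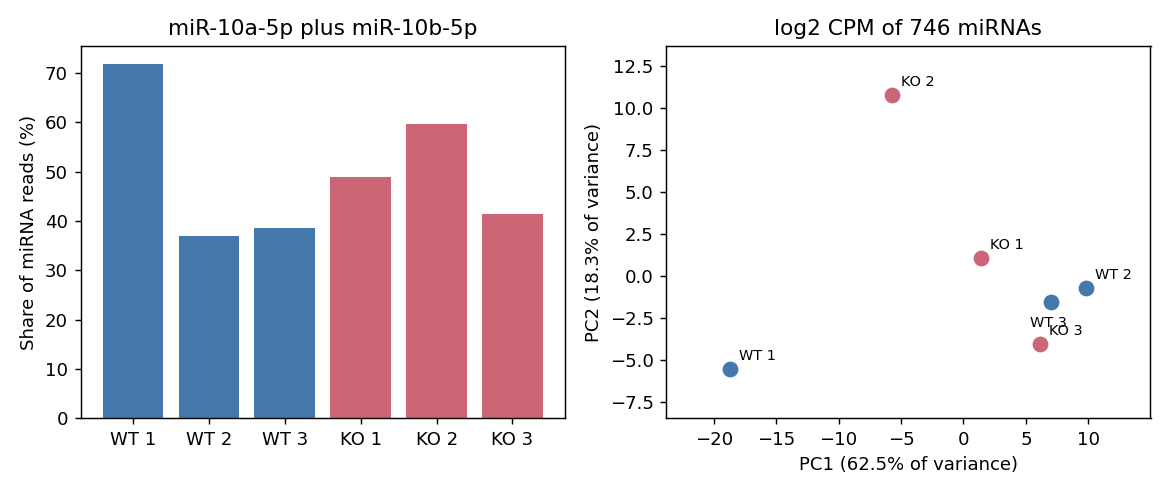
Left, share of miRNA reads (%) taken by miR-10a-5p plus miR-10b-5p in each of the 6 Pkd2 libraries at P3 (WT blue, KO red). Right, the same libraries on the first 2 principal components of log2 CPM over 746 miRNAs; WT replicate 1, with a share of 71.9%, lies far from the other 5 on the first component.

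No miRNA differed between KO and WT at P3 at an adjusted p under 0.05 by edgeR with Benjamini-Hochberg adjustment, which is 0% of those tested, and the lowest adjusted p was 0.999876. At an unadjusted p under 0.05 there were 11 miRNAs, 1.47% of those tested, compared with 37.3 that this threshold gives on average when nothing differs. Of these, 5 were higher in KO (0.67% of those tested) and 6 lower (0.804%). At 2-fold and unadjusted p under 0.05, the thresholds of the study, edgeR gave 2 miRNAs (0.268%), miR-3470a and miR-3473e, both lower in KO. The study joined its lists from edgeR and DESeq2, whereas this count is from edgeR alone. Without WT replicate 1 the count at 2-fold was 12 and the count at unadjusted p under 0.05 was 26, of which 7 were among the 11, each with the same sign, and none had an adjusted p under 0.05 (lowest 0.930). Without both WT replicate 1 and KO replicate 2 these counts were 8 and 16, again with 0 at an adjusted p under 0.05. DESeq2 likewise gave 0 at an adjusted p under 0.05.

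The log2 fold changes of KO over WT had a median of -0.05 over the 746 miRNAs and ran from -1.60 to 2.01, with 301 above 0 (40.3%). Scaling by library totals in place of TMM put the median at 0.04. For 452 miRNAs (60.6%) the 95% interval of the fold change lay wholly within 2-fold in either direction, so that a change of 2-fold or more was outside the interval for them. With library totals in place of TMM this count was 261. This depended on abundance: 54 of 63 miRNAs at 1000 CPM or more, 85 of 98 between 100 and 1000 CPM and 140 of 177 between 10 and 100 CPM were within this bound, compared with 141 of 215 between 1 and 10 CPM and 32 of 193 below 1 CPM. For the rest, a 2-fold difference was not excluded at this spread. In TMM-scaled CPM, all 3 KO libraries lay above all 3 WT libraries for 19 miRNAs (2.55%) and below them for 16 (2.14%), together 4.69% of those tested.

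**Figure D2:**
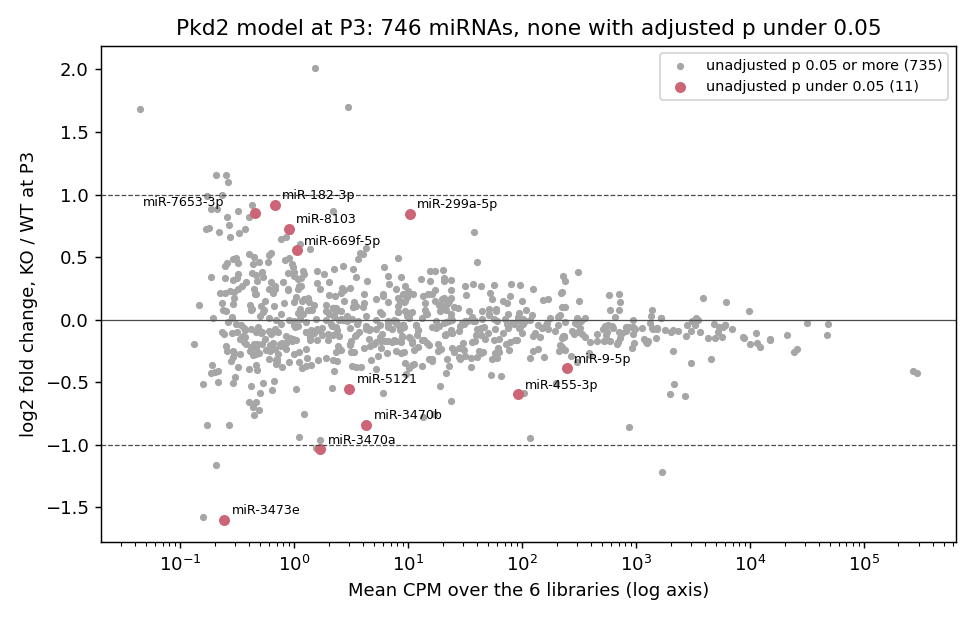
Log2 fold change of KO over WT at P3 against mean CPM over the 6 libraries (log axis) for 746 miRNAs; dashed lines mark 2-fold. The 11 miRNAs with an unadjusted p under 0.05 are named, and fold changes of 2-fold or more (12 miRNAs) are found mostly below 10 CPM.

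The miR-183 cluster was detected in all 6 libraries, and none of its 5 products had an adjusted p under 0.05. miR-182-5p, the 19th most abundant miRNA, was at 9177, 3767 and 4714 CPM in WT replicates 1 to 3 and at 6549, 7553 and 5354 CPM in KO replicates 1 to 3. All KO libraries lay above WT replicates 2 and 3. They lay below WT replicate 1 in TMM-scaled CPM, which its TMM factor of 0.544 raises, but not by library totals. The log2 fold change was 0.14 (95% interval -0.53 to 0.81), and without WT replicate 1 it was 0.62 (-0.01 to 1.24).

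miR-183-5p had the same arrangement, with 1612, 535 and 639 CPM in WT and 921, 984 and 871 CPM in KO. WT replicate 1 was again the highest of the 6 in TMM-scaled CPM, though not by library totals, and the other WT libraries were the lowest. Its log2 fold change was -0.01 (-0.66 to 0.65) over the 6 libraries and 0.66 (0.21 to 1.11) without WT replicate 1, with an adjusted p of 0.930 in the edgeR test.

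For miR-96-5p the WT libraries held 91.9, 11.8 and 12.4 CPM and the KO libraries 27.2, 53.1 and 21.8 CPM. WT replicate 1 was the highest, followed by KO replicate 2, and the sign of the estimate turned when it was left out, from -0.18 (-1.72 to 1.37) to 1.49 (0.14 to 2.83) without WT replicate 1. miR-183-3p, from the other arm of the Mir183 hairpin, was at 39.8, 27.2 and 32.0 CPM in WT and 44.1, 31.4 and 44.8 CPM in KO. The groups overlapped through KO replicate 2, and the log2 fold change was 0.28 (-0.22 to 0.78), or 0.45 (-0.10 to 0.99) without WT replicate 1.

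miR-182-3p had the smallest p of all miRNAs at P3 (unadjusted p = 0.0114, adjusted p = 0.999876 in edgeR). This arm of the Mir182 hairpin is rare, at 0.497, 0.489 and 0.416 CPM in WT and 1.08, 0.732 and 0.831 CPM in KO, a mean of 18.7 reads a library. All KO libraries lay above all WT libraries. The log2 fold change was 0.92 (0.24 to 1.60) and was close to this value, at 0.96, without WT replicate 1.

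Across the cluster, 3 of 5 products had a positive log2 fold change with a median of 0.14, beside -0.05 for all miRNAs tested. Without WT replicate 1 all 5 were positive with a median of 0.66, beside 0.03 for all miRNAs, and 3 had an unadjusted p under 0.05, whereas over all 746 miRNAs in that fit 403 were positive and 26 had such a p. Leaving out KO replicate 2 as well gave a median of 0.60. The miR-10 share was highest in the same WT library in which the 3 main products of the cluster were highest in TMM-scaled CPM. That library also had the lowest TMM factor, 0.544, which raises its scaled CPM. By library totals, which its miR-10 share of 71.9% lowers for other miRNAs, it was not the highest for miR-182-5p or miR-183-5p. Which scaling is closer to the true levels was not tested. With that share as a covariate in the fit of 18 libraries, the estimates were 0.14 for miR-182-5p, 0.074 for miR-183-5p and 0.18 for miR-96-5p. At P7 the median of the 5 was 1.35 and 4 had an adjusted p under 0.05, beside 12.6% of all miRNAs tested (8.98% higher in KO), whereas miR-96-5p had 0.0965 (edgeR).

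**Figure D3:**
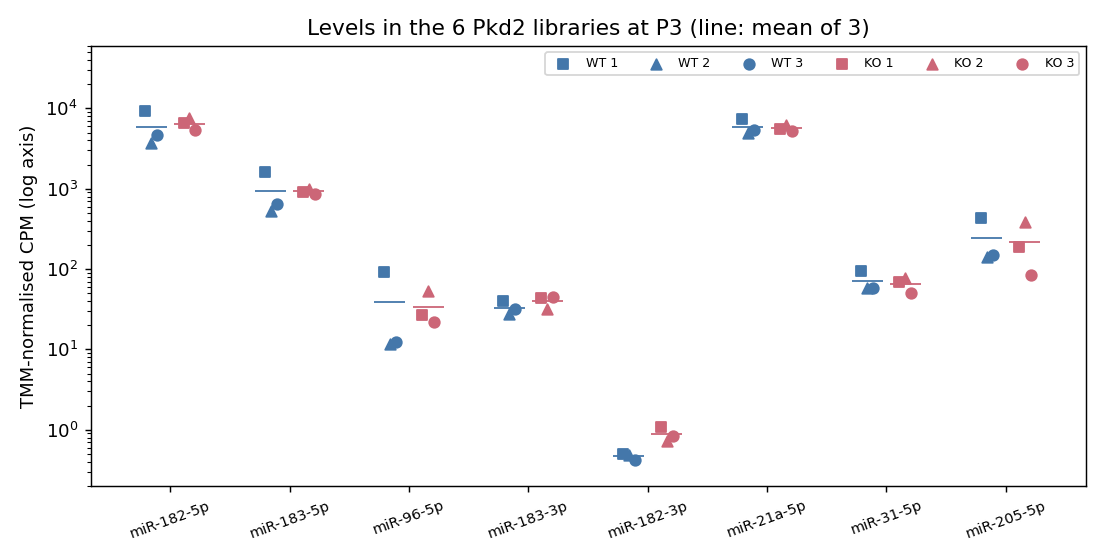
TMM-normalised CPM (log axis) of 8 miRNAs in the 6 Pkd2 libraries at P3; squares, triangles and circles are replicates 1, 2 and 3, WT in blue and KO in red, and lines are means of 3. WT replicate 1 is the highest library for miR-182-5p (9177 CPM), miR-183-5p (1612 CPM) and miR-96-5p (91.9 CPM), and KO and WT are fully apart for miR-182-3p alone among those plotted.

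miR-21a-5p was at 7345, 4979.6 and 5392 CPM in WT and at 5603, 6133 and 5253 CPM in KO. The 3 KO libraries lay inside the WT range. The log2 fold change was -0.06 (-0.58 to 0.46), an interval that stays within 2-fold, and without WT replicate 1 it was 0.13 (-0.42 to 0.69). At P7 it was 1.11 (adjusted p = 0.0147 in edgeR). Its partner from the other arm, miR-21a-3p, was 0.00 (-0.76 to 0.77) at P3.

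miR-31-5p, an epithelial miRNA of the skin and of injured tissue, was at 95.2, 57.6 and 58.3 CPM in WT and at 68.3, 77.4 and 49.9 CPM in KO at P3. The groups overlapped, with a log2 fold change of -0.11 (-0.76 to 0.54), or 0.17 (-0.49 to 0.84) without WT replicate 1. At P7 it was 2.37, and the difference between the KO effects at P7 and P3, 2.48, was the only one of 746 with an adjusted p under 0.05 (0.0262 in edgeR; 0.134% of those tested). That call was lost without WT replicate 1 at P3 and in 5 of the other 11 sets that leave out 1 library, as given in the closing section. miR-31-3p was at 11.6, 3.77 and 4.86 CPM in WT and 8.81, 13.4 and 5.74 CPM in KO, a log2 fold change of 0.49 (-0.37 to 1.36) that was 1.11 (0.30 to 1.91) without WT replicate 1.

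miR-205-5p, which is abundant in stratified and urinary tract epithelium, ranged widely within both groups. It was at 431, 142 and 149 CPM in WT and at 189, 383 and 85.6 CPM in KO. The highest library of each group was the one with the highest miR-10 share, and the log2 fold change of -0.13 had an interval of -1.56 to 1.30. Without WT replicate 1 it was 0.59 (-0.93 to 2.11). At P7 miR-205-5p was higher in KO by 2.87 (adjusted p = 0.0175 in edgeR), and so was miR-205-3p, from the other arm of its hairpin, by 3.07 (adjusted p = 0.0147).

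Among the other miRNAs with an unadjusted p under 0.05, miR-455-3p and miR-9-5p were the most abundant. miR-455-3p, a miRNA of cartilage-forming cells, was at 151, 96.6 and 82.2 CPM in WT and 76.9, 76.5 and 65.0 CPM in KO. Every KO library was below every WT library in TMM-scaled CPM, though not by library totals. The log2 fold change was -0.59 (-1.10 to -0.09), but -0.29 (-0.75 to 0.17) without WT replicate 1. miR-9-5p, best known from the nervous system, was at 300.5, 286 and 248 CPM in WT and at 216, 214 and 206 CPM in KO. These groups did not overlap in TMM-scaled CPM either, but they did by library totals. The KO group was tight in TMM-scaled CPM. The log2 fold change was -0.39 (-0.77 to -0.01), or -0.32 (-0.75 to 0.10) without WT replicate 1. The neural list of 10 miRNAs, in which miR-9-5p is the most abundant, summed to 337 to 398 CPM in WT and 292 to 299 CPM in KO, and 4 of its 10 members had a positive log2 fold change (median -0.14). At P7 miR-455-3p and miR-9-5p were at -0.11 and 0.28, neither with an adjusted p under 0.05.

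miR-299a-5p was at 8.28, 4.40 and 9.53 CPM in WT and 14.3, 16.7 and 8.86 CPM in KO, a log2 fold change of 0.85 (0.05 to 1.64), or 0.93 (0.03 to 1.83) without WT replicate 1. KO replicate 3 fell inside the WT range. It was the 1 member of the miR-379/410 cluster with an unadjusted p under 0.05.

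The others were of low abundance. miR-3470a was at 1.41, 3.36 and 2.05 CPM in WT and 1.15, 0.814 and 1.38 CPM in KO. It did not overlap between the groups in TMM-scaled CPM and had a log2 fold change of -1.03 (-1.95 to -0.12). miR-3470b was at 2.73, 8.42 and 5.27 CPM in WT and at 2.73, 2.56 and 3.95 CPM in KO (-0.84, -1.64 to -0.04). These miRNAs have similar names and may share reads, which the counting could split, so their values are uncertain as separate measurements. miR-3473e, at -1.60 (-3.15 to -0.05), rested on few reads, with 1, 15 and 15 reads in WT and 4, 1 and 7 reads in KO.

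miR-7653-3p (0.85), miR-8103 (0.73) and miR-669f-5p (0.55) were higher in every KO library than in any WT library but stayed at or below 1.38 CPM. miR-5121 was lower in KO by a log2 fold change of -0.55 with overlap between the groups. The next in order, miR-3102-3p.2-3p, also at -0.55, had an unadjusted p of 0.0537.

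Among the most abundant miRNAs of these kidneys, miR-10a-5p took 37.0%, 19.3% and 20.2% of reads in WT and 25.2%, 29.6% and 22.7% in KO, and miR-10b-5p 34.9%, 17.7% and 18.3% in WT and 23.7%, 29.9% and 18.8% in KO. The KO libraries lay within the WT range for both. Their log2 fold changes were -0.43 (-1.59 to 0.74) and -0.41 (-1.75 to 0.93), and both turned positive without WT replicate 1, at 0.65 and 0.70. For miR-30a-5p, of a family abundant in tubule epithelium, the estimate was -0.13 (-0.62 to 0.37), and for miR-181a-5p it was -0.03 (-0.39 to 0.34).

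miR-26a-5p was at 28093, 24648 and 26679.9 CPM in WT and at 23109, 20673 and 22628 CPM in KO. All KO libraries were below all WT libraries in TMM-scaled CPM, though not by library totals. The log2 fold change of -0.26 had a narrow interval of -0.54 to 0.03 (unadjusted p = 0.0717 in edgeR).

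The widest spread within a group among miRNAs of at least 100 CPM was found for miR-145a-5p, miR-19a-3p and miR-19b-3p. miR-145a-5p, a miRNA of smooth muscle, was at 6039.9 CPM in WT replicate 1, compared with 491 and 501 CPM in the other WT libraries and 829, 1632 and 557 CPM in KO. Its fold change followed that library, at -1.22 with it and 1.02 without it. miR-143-3p, which is transcribed together with miR-145a, ran the other way, with 24489 CPM in WT replicate 1 and 59394 and 61541 CPM in the others. miR-19a-3p and miR-19b-3p are members of the miR-17/92 cluster and its paralogs. miR-19a-3p was at 384, 41.7 and 34.4 CPM in WT and 61.7, 138 and 38.03 CPM in KO. miR-19b-3p was at 2763, 311 and 261 CPM in WT and 448.7, 1104 and 287 CPM in KO. Both were thus highest in WT replicate 1 and next in KO replicate 2, the libraries with the highest miR-10 shares.

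Lists of miRNAs by family, cluster or the cell type they mark were described by counts and medians, beside the median of -0.05 and the 1.47% at unadjusted p under 0.05 over all miRNAs. No member of any list had an adjusted p under 0.05. In the miR-17/92 cluster and its paralogs, which are linked to proliferation, 0 of 25 had an unadjusted p under 0.05, and the median was -0.08, with 6 of 25 positive. Without WT replicate 1 the median was 0.16, with 19 of 25 positive. Its most abundant member, miR-92a-3p, was at -0.07 (-0.45 to 0.30), and miR-93-5p, ranked 3 in the list by mean CPM, was at -0.08 (-0.36 to 0.20). In the miR-200 family, which maintains the epithelial state, 10 of 10 were negative with a median of -0.10, a small difference, and 5 of 10 were positive without WT replicate 1. miR-200b-3p, for example, was at 3594, 2765 and 2939 CPM in WT and 2863, 2825 and 3059 CPM in KO, so the groups overlapped.

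Of 7 miRNAs of the nephron tubule, 6 were negative with a median of -0.17 at P3, and none had an unadjusted p under 0.05, whereas at P7 the median was -0.95 and 5 had an adjusted p under 0.05, beside 12.6% of all miRNAs tested (3.62% lower in KO). The P3 median was -0.29 without WT replicate 1. miR-192-5p was at 6200.1, 13974 and 16439.9 CPM in WT and 11563, 7831 and 12752 CPM in KO. It was lowest in WT replicate 1 and in KO replicate 2. The log2 fold change was -0.19 (-0.91 to 0.53), or -0.50 (-1.15 to 0.16) without WT replicate 1, and that of miR-194-5p, which is transcribed with it, was -0.17 (-0.61 to 0.28).

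The imprinted miRNAs of chromosome 12 are strongly expressed in embryonic tissue. Of the miR-379/410 cluster, 47 of 62 were positive at P3 with a median of 0.18 and 1 had an unadjusted p under 0.05. At P7 the median was 1.49 and 31 of 62 had an adjusted p under 0.05, beside 12.6% of all miRNAs tested (8.98% higher in KO). Leaving out WT replicate 1 gave a P3 median of 0.30, and leaving out KO replicate 2 as well gave -0.02. The 24 other imprinted miRNAs listed for this locus had a median of 0.06. miR-127-3p, abundant among them, was at 2364, 3888 and 3682 CPM in WT and 2992, 3866 and 3180.4 CPM in KO, and miR-411-5p of the first cluster was at 1043, 1731 and 1884 CPM in WT and at 1386, 1577 and 1452 CPM in KO. WT replicate 1 was lowest for both, and the log2 fold changes were 0.02 (-0.86 to 0.89) and -0.08 (-0.81 to 0.66).

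Markers of other cell types are given as sums over each list. The 8 muscle miRNAs summed to 31.9 to 37.6 CPM in WT and to 39.4, 115.7 and 20.6 CPM in KO. KO replicate 2 was the high one, with miR-133a-3p at 89.7 CPM compared with 17.4 to 32.6 CPM in the other 5, and the muscle median of 0.55 was -0.31 without it and WT replicate 1. The 2 products of the hepatocyte miRNA miR-122 summed to 0.497, 31.8 and 20.4 CPM in WT and to 19.9, 21.1 and 2.24 CPM in KO, low in 1 library of each group. The erythroid list, in which miR-486a-5p is the most abundant, summed to 3631 to 4589 CPM in WT and 3396 to 4697 CPM in KO. The leukocyte list summed to 1082 to 1339 CPM in WT and 964 to 1131 CPM in KO. The vascular list summed to 43630.2 to 84358 CPM in WT and 54965 to 77562 CPM in KO, and the stromal list to 9629.9 to 18125 CPM in WT and 11117 to 16686 CPM in KO, in both cases lowest in WT replicate 1. In the erythroid list, miR-486a-5p and miR-486b-5p had near-equal log2 fold changes without WT replicate 1 and KO replicate 2 (-0.178 and -0.179). The same held for miR-199a-3p and miR-199b-3p of the stromal list (-0.173 and -0.175). Such pairs may share reads, so these sums may count the same reads more than once. No list summed to 0 in any library, and the part of these cells in the results above was not tested.

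**Figure D4:**
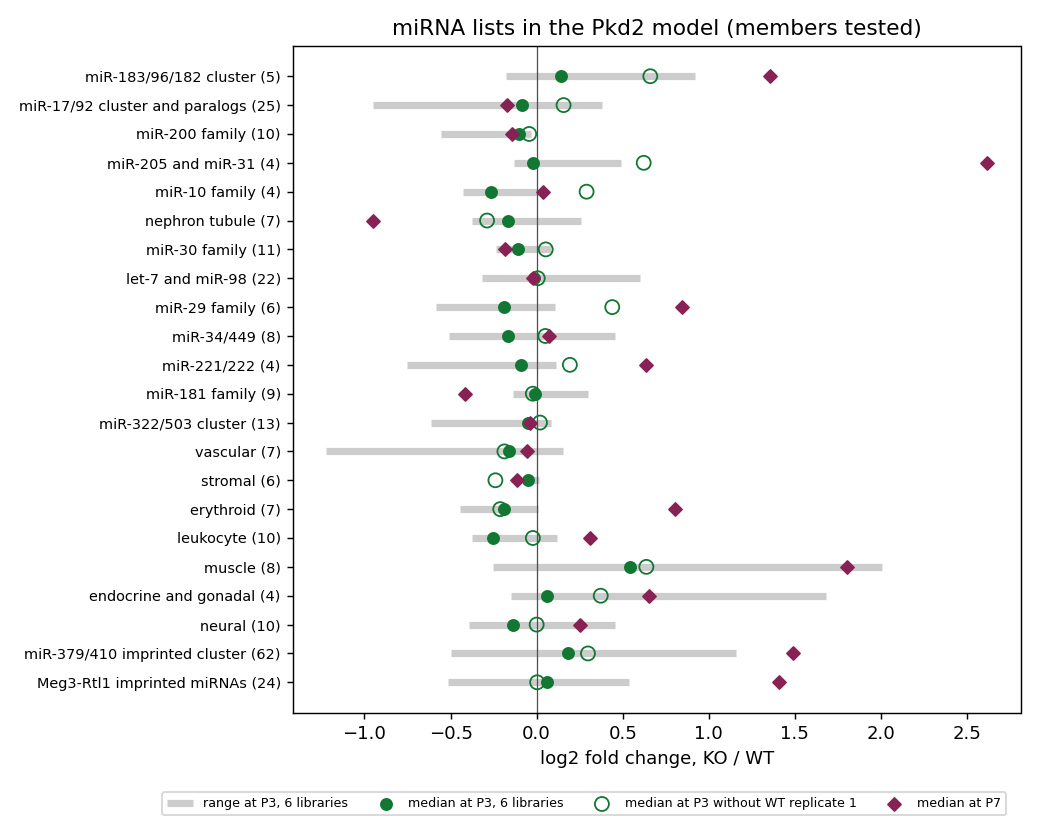
Median log2 fold change of KO over WT for each list of at least 4 tested miRNAs, with the number tested in brackets: at P3 over 6 libraries (filled circles; grey bars, range), at P3 without WT replicate 1 (open circles) and at P7 (diamonds). The miR-183 cluster is at 0.14, 0.66 and 1.35 on these 3 measures.

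The age at which KO and WT differ was asked by comparing P3 with the other ages. By the same test, 0 of 746 miRNAs had an adjusted p under 0.05 at P1, where 41 (5.5%) had an unadjusted p under 0.05. At P7 there were 94 (12.6%), of which 67 were higher (8.98%) and 27 lower (3.62%) in KO. The P7 libraries also varied in miR-10 share, at 66.4%, 47.9% and 42.8% in WT and 41.1%, 74.1% and 57.4% in KO. The 67 higher at P7 had a median of 0.14 at P3, with 45 positive, and the 27 lower had a median of -0.10, with 22 negative. This list was chosen on the P7 libraries. Of the 94, 1 (miR-182-3p) had an unadjusted p under 0.05 at P3, beside 1.47% of all miRNAs tested. miR-29a-3p, which targets collagens and was higher in KO by 1.31 at P7, was -0.12 (-0.61 to 0.37) at P3. miR-34a-5p, induced by p53, was at 1.23 at P7 and -0.16 (-0.73 to 0.41) at P3. The difference of KO effects between P7 and P3 had an unadjusted p under 0.05 for 111 miRNAs (14.9%) and an adjusted p under 0.05 for miR-31-5p alone, so that for the others a difference between the ages was not shown.

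**Figure D5:**
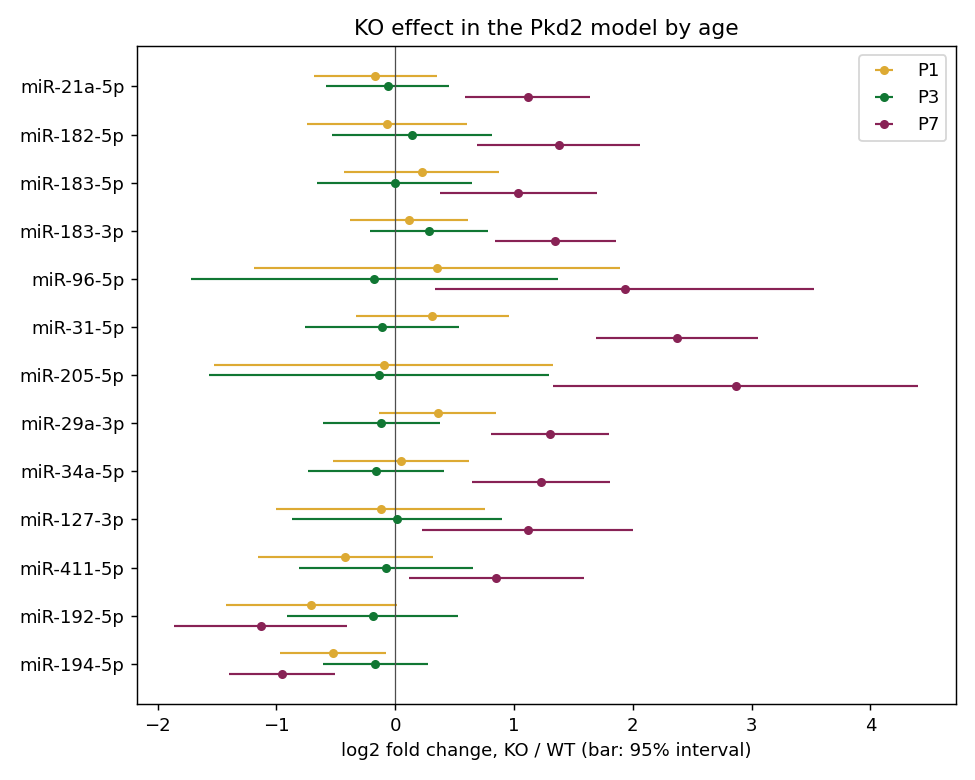
Log2 fold change of KO over WT in the Pkd2 model with its 95% interval, for 13 miRNAs at P1, P3 and P7. At P3 all 13 intervals include 0; miR-31-5p moves from -0.11 at P3 to 2.37 at P7.

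Whether the 2 models differ at P3 was tested in a fit of all 36 libraries over 775 miRNAs, as the KO effect in the Pkd2 model minus that in the Pkd1 model. The Pkd1 libraries at P3 also varied in miR-10 share, which limits this comparison. It was 57.4%, 63.8% and 37.3% in WT and 31.4%, 79.8% and 40.6% in KO. No miRNA had an adjusted p under 0.05 in edgeR (smallest 0.407), and 39 had an unadjusted p under 0.05 (5.03%, compared with 38.75 on average by chance). The smallest p-values belonged to miR-99b-5p (difference 1.22), miR-100-5p (1.25) and miR-26a-2-3p (1.01). In the Pkd2 model miR-99b-5p was at 4351, 3186 and 3372 CPM in WT and 3562, 3534 and 5206 CPM in KO, with 1 high KO library and overlap. Its log2 fold change was 0.17 there and -1.02 in the Pkd1 model. For miR-182-5p the difference between the models was -0.33, with 0.50 in the Pkd1 model, and for miR-21a-5p it was -0.12.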

How the data were processed

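miRNA sequencing counts of 6 Pkd2 kidney libraries at P3 were compared within the 18 libraries of the model. The authors trimmed adaptors, discarded reads of up to 17 bases and ran miRDeep2 (version not given in the sources used here) against miRBase release 21 and mm10 to count the rest; the submitters' processing notes also name CASAVA 1.8.2 and HTSeq. The deposited values are raw read counts for each pair of mature miRNA and hairpin. Of several hairpin rows of 1 miRNA (57 of the 746 tested), only the row with most reads was kept. edgeR 4.0.16 in R 4.3.3 was used with TMM factors, a quasi-likelihood F-test, 1 term per group and Benjamini-Hochberg adjustment over all miRNAs tested (threshold 0.05). The 95% interval is the log2 fold change plus or minus the t quantile times its standard error. CPM are TMM-scaled. The model was run on simulated counts with known changes. No simulated library was set apart as WT replicate 1 was, so that run does not bear on its effect. Alternatives were DESeq2 1.42.0, other scaling factors, no filter, summed hairpin rows, the compared libraries alone, the miR-10 share as a covariate, a replicate block and libraries left out. Depth was 21859844 to 32663566 reads, and floors from counts cover counting error only. The 95% intervals also include the spread between libraries. The members and lists were chosen with earlier results of these data known. The miRNAs named are from a rule that takes the 12 smallest p-values, those whose groups do not overlap, the 10 most abundant, list members, those that differ most between ages or models, and the widest ranges within a group; not all it takes are printed.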

Additional observations from a re-analysis of the deposited data

Results flagged for a closer look

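The KO effect on miR-31-5p differed between P7 and P3 in the Pkd2 model, by 2.48 on the log2 scale (adjusted p = 0.0262, edgeR test of the difference itself). It is listed here because the effects at the 2 ages differed by that test. The level was higher in KO at P7 and overlapped between the groups at P3, and the call was lost in 6 of the sets that leave out 1 library, among them the one without WT replicate 1 at P3.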

How the results depend on the processing

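The absence of miRNAs with an adjusted p under 0.05 between KO and WT at P3 held under every alternative run. The count at 2-fold and unadjusted p under 0.05 (2) was 17 with no filter on low counts, 1 by DESeq2, 0 with the replicate block, 8 with WT replicate 1 and KO replicate 2 both left out, and 1 to 12 with 1 library left out (12 without WT replicate 1, 4 without KO replicate 1, 1 without KO replicate 2, 9 without KO replicate 3). The count with the 95% interval within 2-fold (452) was 261 with library totals alone and 370 to 409 with 1 library left out. The count for the KO effect at P7 minus P3 (1, miR-31-5p) was 0 with library totals alone, with the compared libraries alone and with both of those libraries left out, 2 with no filter, 8 by DESeq2 and 25 with a covariate for miR-10 share. With 1 library left out it ran from 0 to 11: it was 0 when KO replicate 1 or 3 or WT replicate 1 at P3, or KO replicate 3 or WT replicate 2 or 3 at P7, was absent, 2 without KO replicate 1 at P7 and 11 without KO replicate 2 at P7. The count for the Pkd2 model minus the Pkd1 model (0) was 0 to 2, with 2 without WT replicate 3 of the Pkd1 model. The cause of these shifts was not tested.

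The labels share replicate numbers but do not say that these mark pairs, and they were not taken as pairs. Deviations of same-numbered WT and KO libraries at P3 correlated at -0.09, -0.37 and 0.36. WT replicates 2 and 3 correlated alike with KO replicate 2 (-0.37 and -0.40) and with KO replicate 3 (0.38 and 0.36). With WT replicate 1 so far apart, these values cannot show or exclude pairing. With the replicate block, 0 miRNAs had an adjusted p under 0.05 at P3, 0 reached 2-fold and unadjusted p under 0.05, and 0 were called for P7 minus P3; miR-183-5p was 0.18 and miR-96-5p 0.46.

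Of 36 single miRNAs followed, those that turned sign had intervals that include 0 over the 6 libraries. The turned values of miR-183-5p (without WT replicate 1, and without both libraries) and of miR-96-5p (without WT replicate 1) had intervals that exclude 0. miR-183-5p, at -0.01, was 0.0046 with RLE factors and by DESeq2, 0.0035 with hairpin rows summed, 0.037 with no filter, 0.074 with the miR-10 covariate, 0.34 with library totals and 0.60 with both libraries left out. miR-96-5p was 0.18, 0.38 and 1.01 under the last 3 of these. With library totals, miR-21a-5p was 0.092, miR-21a-3p -0.023, miR-31-5p 0.064, miR-205-5p 0.14, miR-93-5p 0.017, miR-10a-5p 0.020, miR-10b-5p 0.029, miR-181a-5p 0.034, miR-30a-5p 0.026 and miR-127-3p -0.018. With both libraries left out, miR-21a-5p was 0.060, miR-21a-3p -0.065, miR-31-5p 0.021, miR-145a-5p 0.47, miR-10a-5p 0.40, miR-10b-5p 0.36, miR-30a-5p 0.00078 and miR-127-3p -0.30. miR-411-5p was 0.038 with the miR-10 covariate, and miR-181a-5p 0.0017 with no filter.

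With 1 library left out the ranges were -0.28 to 0.66 for miR-183-5p, -0.10 to 0.62 for miR-182-5p, -0.64 to 1.49 for miR-96-5p, -0.17 to 0.13 for miR-21a-5p, -0.30 to 0.26 for miR-21a-3p, -0.24 to 0.17 for miR-31-5p, -0.80 to 0.59 for miR-205-5p, -0.78 to 0.65 for miR-10a-5p, -0.77 to 0.70 for miR-10b-5p, -0.17 to 0.15 for miR-127-3p, -1.75 to 1.02 for miR-145a-5p, -0.080 to 0.045 for miR-181a-5p, -0.50 to 0.087 for miR-192-5p, -0.29 to 0.0022 for miR-194-5p, -0.25 to 0.018 for miR-29a-3p, -0.24 to 0.058 for miR-30a-5p, -0.29 to 0.028 for miR-34a-5p, -0.29 to 0.086 for miR-411-5p, -0.21 to 0.088 for miR-92a-3p and -0.036 to 0.33 for miR-99b-5p. Depth limits the 193 miRNAs below 1 CPM, of which 32 had an interval within 2-fold.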

Other observations

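Without WT replicate 1, the smallest unadjusted p-values at P3 belonged to miR-409-5p, of the imprinted miR-379/410 cluster, at a log2 fold change of 1.82 (95% interval 0.74 to 2.89), and to miR-125b-5p at 0.61 (0.22 to 1.00), each with an adjusted p of 0.930 in edgeR. Over the 6 libraries they were at 0.87 and 0.14. Both were chosen after their values were seen.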
